A study of Mus musculus with 6 samples.

Results

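The myosin light chains examined here are the products of 7 mouse genes, Myl1, Myl2, Myl3, Myl4, Myl6, Myl6b and Mylpf. They were read through every probe set whose annotation names exactly 1 of these genes, which gave 10 of the 45037 probe sets that are not Affymetrix controls, or 7 of the 18193 genes with such a probe set. The tested cells were C2C12, a myoblast line from mouse muscle, carrying an shRNA against PRDM2 as a stable pool, with 3 arrays. The controls were stable C2C12 pools with an shRNA against GFP, with 3 arrays. Cells of both groups were held for 48 hours in methylcellulose suspension with 20% fetal calf serum, a treatment used to arrest them in G0. Whether both groups arrested alike was not tested here. Each group is labelled as a pool with biological replicates, and no label says that replicates came from separate transfections, so p-values measure the spread between these arrays.

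In muscle myosin, the neck of each heavy chain carries an essential and a regulatory light chain, which stiffen the lever arm and tune the force and speed of contraction. Myl1 encodes the essential light chains of fast skeletal muscle, Myl4 the essential light chain of embryonic muscle and atrium, and Myl3 that of slow muscle and ventricle. Mylpf encodes the regulatory light chain of fast skeletal muscle and Myl2 that of slow muscle and ventricle. Myl6 encodes the essential light chain of nonmuscle and smooth muscle myosin, and Myl6b a related essential chain found in slow muscle and in nonmuscle cells, so the set is not purely sarcomeric. In C2C12 cultures the fast and embryonic light chains are known as products of differentiating myotubes.

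The light chains that differed fell into a small set. Myl1, Myl4 and Mylpf rose in knockdown cells by 4.29 to 4.52 on the log2 scale, with Myl4 at 1 of its 2 probe sets, while Myl2, Myl6 and Myl6b did not pass the test and Myl3 passed at a single dim probe set. The regions before the start sites of the genes that rose are shown because these transcripts moved together. They are the 250 bases before a start of each gene in the RefSeq promoter table on GRCm38.p6. Each of the 3 windows lies inside the gene's RefSeq span, so the start is an internal one and other transcripts begin further upstream. The windows are printed 5′ to 3′, with capitals marking the E-box CANNTG, the letters that the MyoD family of transcription factors is known to bind.
Myl1, chr1:66945057-66945306, minus strand: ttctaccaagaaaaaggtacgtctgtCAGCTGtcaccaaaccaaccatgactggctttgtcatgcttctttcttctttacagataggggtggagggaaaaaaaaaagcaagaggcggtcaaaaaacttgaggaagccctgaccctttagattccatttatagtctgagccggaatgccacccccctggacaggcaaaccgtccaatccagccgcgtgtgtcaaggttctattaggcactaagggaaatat
Mylpf, chr7:127211358-127211607, plus strand: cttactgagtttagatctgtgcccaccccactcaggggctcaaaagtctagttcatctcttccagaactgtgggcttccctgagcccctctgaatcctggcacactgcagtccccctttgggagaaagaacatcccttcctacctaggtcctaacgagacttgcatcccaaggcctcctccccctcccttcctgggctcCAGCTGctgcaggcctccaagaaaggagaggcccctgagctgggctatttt
Myl4, chr11:104550413-104550662, plus strand: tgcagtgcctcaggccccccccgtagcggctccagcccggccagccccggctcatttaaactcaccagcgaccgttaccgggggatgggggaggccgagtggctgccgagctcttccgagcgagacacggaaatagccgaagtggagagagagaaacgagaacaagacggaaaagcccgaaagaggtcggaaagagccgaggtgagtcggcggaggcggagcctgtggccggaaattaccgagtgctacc

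Both strands were searched for CANNTG, for TATAAA, for the MEF2 consensus and for the CArG box of serum response factor. The Myl1 and Mylpf windows each held 1 E-box, with the same letters, CAGCTG, beginning 224 and 51 bases before the start. The Myl4 window held 0 of the 4 motifs, which says only that these letters are not in this window. The Myl1 window also held 1 TATAAA on the opposite strand, beginning 95 bases before the start. Each of the 4 genes that did not rise at their brightest probe set also held an E-box. The Myl3 window held 1 E-box and 1 CArG box, the Myl2 windows held 1 E-box, and 2 with 1 TATAAA, the Myl6 windows held 1 E-box, and 1 CArG box, and the Myl6b window held 1 E-box. Across the 32817 RefSeq windows of this length, 66.2% held an E-box, 12.4% TATAAA, 1.69% the MEF2 consensus and 1.47% a CArG box, so an E-box alone is common. None of the motifs overlapped another in the windows printed.

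Signals are intensities as deposited, linear and not logged. Median intensity was 10.6 to 12.1 per array, and 55.1% to 58.2% of probe sets read below 16. The 2 arrays numbered 3 had low Dap signal, a bacterial transcript spiked in as a control, at 21.2 on knockdown array 3 and 16.1 on control array 3, against 93.1 to 161 on the others. Control array 3 also had a Gapdh 5′ to 3′ ratio of 0.0992, against 0.704 to 1.14 elsewhere. Prdm2, the targeted gene, read 58.0, 51.5 and 29.0 on the knockdown arrays and 86.2, 73.6 and 47.1 on the control arrays at its brightest probe set, 1429251_at. These groups overlapped, the log2 difference was -0.51 (SE 0.216) and the limma adjusted p was 0.441. Of the 3 Prdm2 probe sets 0 passed limma's adjusted threshold, and their place relative to the shRNA target was not analysed here. Of 7 genes listed as markers of undifferentiated myoblasts, 0 rose, 1 fell (Myf5) and 6 did not pass. At their brightest probe set, 2.29% of all genes rose and 1.64% fell. Whether the listed genes are confined to that state was not tested. Itga7 averaged 183 in the knockdown and 105 in the control, with every knockdown array above every control array (limma adjusted p = 0.062). Without quantile normalization, with a median shift, with 1 probe set per gene or with array weights, 1 of the 7 rose. Des, Ncam1, Itga7, Myf5 and Cdh15 read at or above 16 on all arrays, while Pax7, at means of 3.46 in the knockdown and 2.04 in the control, and Pax3, at 8.03 in the knockdown and 11.02 in the control, read below 16 on every array.

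**Figure D1:**
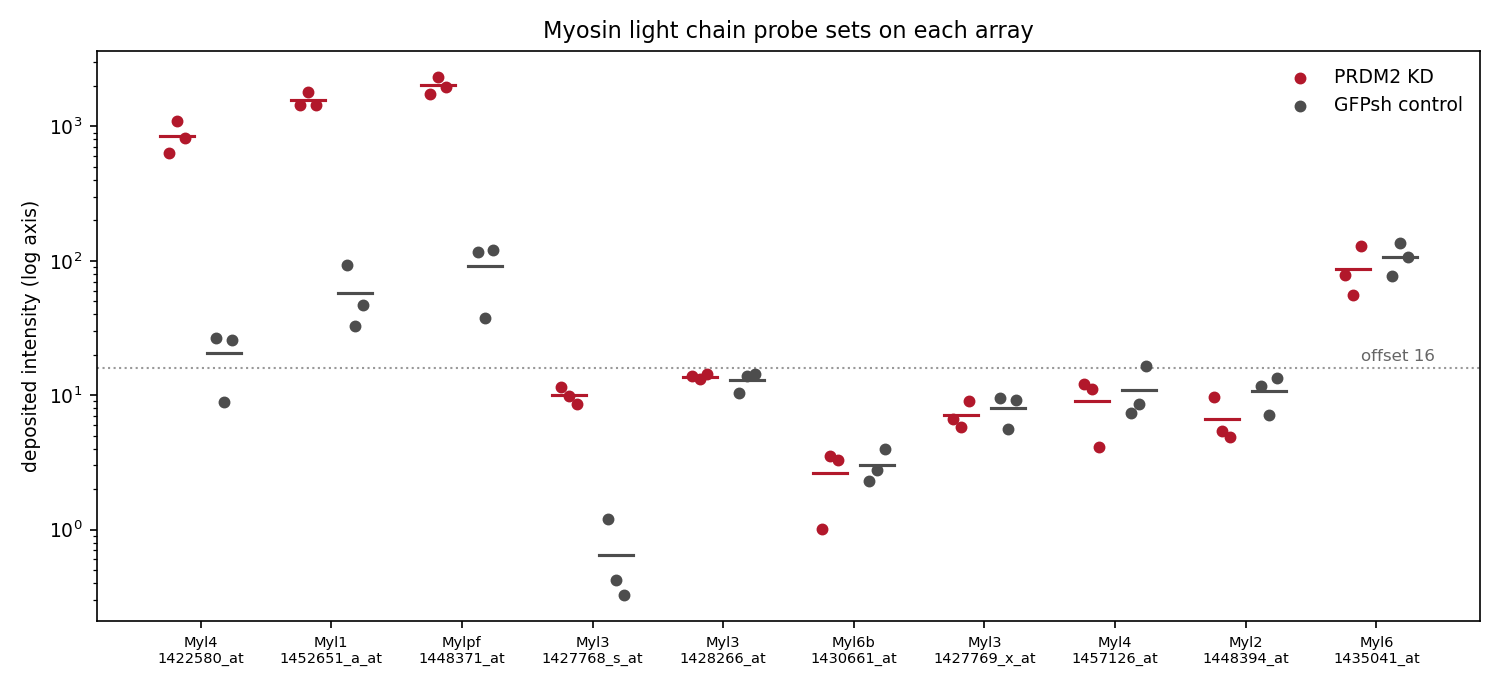
Deposited intensity of each of the 10 myosin light chain probe sets on a log axis, with points for the 3 PRDM2 KD arrays left of the 3 GFPsh control arrays and bars for the means. Knockdown points lie apart from and above control points for Myl1, Mylpf, Myl4 at 1422580_at and Myl3 at 1427768_s_at, the last of which reads below the offset of 16 on every array.

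Myl1, the fast essential light chain gene, read 1439, 1794 and 1452 on knockdown arrays 1 to 3 and 92.8, 32.6 and 46.8 on control arrays 1 to 3. Every knockdown array was far above every control array. The mean was 1562 ± 201 in the knockdown and 57.4 ± 31.5 in the control (SD, n = 3 each). After quantile normalization and log2(intensity + 16), the difference was 4.47 (SE 0.308, limma adjusted p = 0.00181), which is 22.1-fold on that scale. In bulk samples, more cells making a transcript and more transcript per cell cannot be told apart.

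Mylpf, the fast regulatory light chain gene, read 1755, 2343 and 1960 on the knockdown arrays and 117, 37.6 and 120 on the control arrays. The groups did not overlap, and control array 2 was the lowest. Its mean was 2019 ± 298 in the knockdown and 91.5 ± 46.7 in the control (SD, n = 3 each), a log2 difference of 4.29 (SE 0.428, limma adjusted p = 0.00677) or 19.5-fold.

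Myl4, the embryonic and atrial essential light chain gene, has 2 probe sets that disagreed. At 1422580_at it read 635, 1099 and 819 on the knockdown arrays and 26.7, 8.94 and 25.8 on the control arrays. Every knockdown reading was above every control reading, and the change on the log2 scale was 4.52 (SE 0.304, limma adjusted p = 0.00165), or 22.9-fold. At 1457126_at it read 12.2, 11.1 and 4.13 on the knockdown arrays and 7.37, 8.58 and 16.6 on the control arrays. Here the groups overlapped at readings near the array median, and the difference was -0.10 (95% interval -0.58 to 0.38, limma adjusted p = 0.926). The position of either probe set on the transcript was not analysed here.

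Myl3, the slow and ventricular essential light chain gene, passed at 1 of its 3 probe sets, and all 3 read below 16 on every array. Probe set 1427768_s_at read 11.5, 9.83 and 8.56 on the knockdown arrays and 1.20, 0.422 and 0.323 on the control arrays. The groups did not overlap, with a change of 0.65 on the log2 scale (SE 0.0841, limma adjusted p = 0.0163). Because the readings lie below the offset, this size depends on it: with an offset of 1 the difference was 2.80, and with 64 it was 0.20. The adjusted p rose to 0.071 and 0.0583 when control array 1 or 3 was left out, and to 0.0774, 0.0671 and 0.0514 when knockdown array 1, 2 or 3 was.

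The other Myl3 probe sets gave overlapping groups. Probe set 1428266_at, the brightest of the 3, read 13.8, 13.1 and 14.3 in the knockdown and 10.4, 13.9 and 14.4 in the control, a difference of 0.06 (95% interval -0.17 to 0.28, limma adjusted p = 0.904). Probe set 1427769_x_at differed by -0.05 (95% interval -0.31 to 0.21, limma adjusted p = 0.93). In Affymetrix naming, the suffix s marks probes shared by transcripts of more than a single gene and the suffix x marks probes that may cross-hybridize.

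Myl2, the slow and ventricular regulatory light chain gene, was dim in both groups. It read 9.71, 5.40 and 4.91 on the knockdown arrays and 11.6, 7.17 and 13.4 on the control arrays. The groups overlapped, and the difference was -0.24 (95% interval -0.58 to 0.11, limma adjusted p = 0.665).

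Neither nonmuscle member passed the test. Myl6 at 1435041_at read 78.9, 55.4 and 128 on the knockdown arrays and 77.3, 135 and 106 on the control arrays. These readings overlapped, with a difference of -0.37 (95% interval -1.08 to 0.34, limma adjusted p = 0.771). Outside the rule, 2 further probe sets list Myl6 with the loci Gm8894 and Gm5526, and their signal cannot be assigned among those loci. They were bright and overlapping, with means of 1725 ± 173 in the knockdown and 1760 ± 117 in the control at 1424269_a_at, and 1778 ± 254 in the knockdown and 1925 ± 43.1 in the control at 1434396_a_at (SD, n = 3 each). Their differences were -0.10 and -0.18, neither past the test.

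Myl6b stood near the floor, with 1.01, 3.52 and 3.32 on the knockdown arrays and 2.31, 2.79 and 4.0 on the control arrays. Its difference was -0.03 (95% interval -0.26 to 0.19, limma adjusted p = 0.948), so at this signal a change in intensity is compressed by the offset and may not be detectable.

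Of the 10 probe sets, 4 rose, 0 fell and 6 did not pass, by limma with Benjamini-Hochberg adjustment over all probe sets. Across all probe sets, 2.43% passed, 1.42% higher and 1.01% lower in the knockdown. The same 4 probe sets had every knockdown value above every control value, as did 9.03% of all probe sets, and groups stood apart in either direction for 16.9%. The median difference was 0.01 over the members and -0.01 over all probe sets. Among all probe sets ordered by their rise, Myl4 at 1422580_at ranked 3, Myl1 ranked 5 and Mylpf ranked 6 of 45037. That order rests on the offset of 16, which compresses rises from dim controls. As ratios of deposited means, Myl4 at 1422580_at, Myl1 and Mylpf stood at 41.5, 27.2 and 22.1. The heavy chain gene Myh7 stood at 59.8 and the kinase gene Mylk4 at 82.5, yet these ranked 10 and 86. Over all probe sets 1094 passed, a number that dropped to 449 or 632 when control array 1 or 3 was left out and to 385, 507 or 487 when knockdown array 1, 2 or 3 was.

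**Figure D2:**
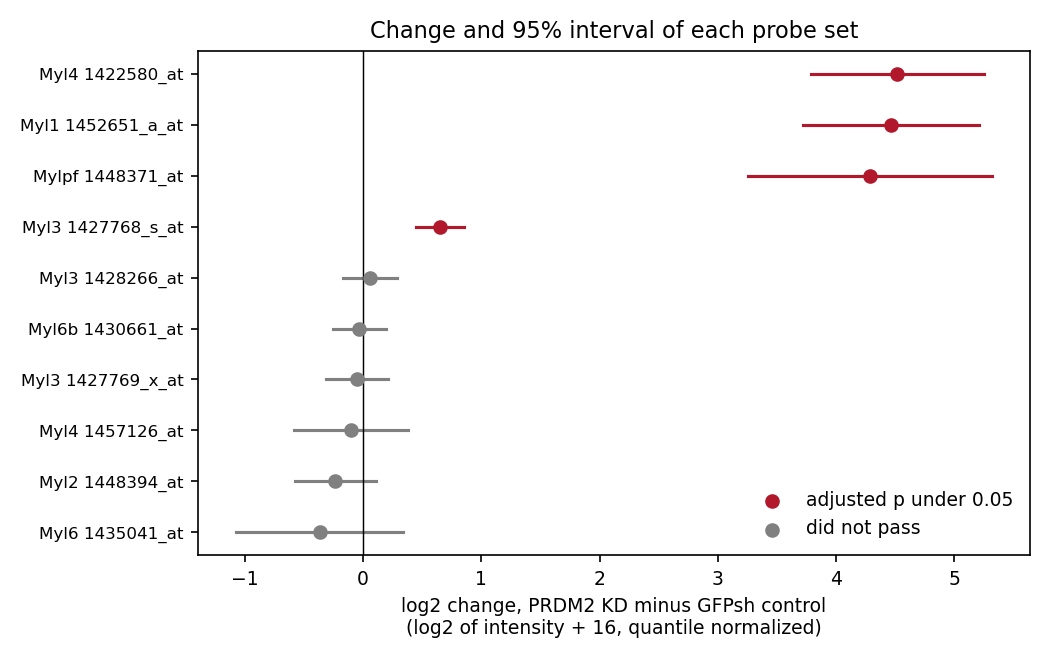
Log2 change of each myosin light chain probe set, PRDM2 KD minus GFPsh control, with its 95% interval from the limma fit. The intervals of Myl1, Mylpf and Myl4 at 1422580_at lie between 3.25 and 5.32, and those of the 6 probe sets that did not pass include 0.

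The steps between the changes of the 3 strongly raised genes were smaller than their standard errors. The permutation test used could not have ordered any pair at 0.05, because it cannot give less than 0.1. Its pairs are also neighbours in an order taken from these same changes. With each gene at its brightest probe set, the change of Myl4 exceeded that of Myl1 by 0.05 (SE 0.247) and that of Myl1 exceeded that of Mylpf by 0.18 (SE 0.325), each with an exact two-sided permutation p of 0.9. The next step, from Mylpf to Myl3 at 1428266_at, was 4.23 (SE 0.529, exact permutation p = 0.1), where 3 arrays against 3 cannot give less than 0.1. Below it Myl3, Myl6b, Myl2 and Myl6 followed, with steps of 0.09, 0.20 and 0.13 and exact permutation p of 0.4, 0.4 and 0.9. Adjusted over the 6 pairs, the smallest p was 0.6.

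Between arrays the 3 genes shared their lowest control and their order over the knockdown arrays, but not their highest control. On control array 2, Myl1, Myl4 and Mylpf stood at -0.63, -0.57 and -1.01 relative to their control means on the log2 scale, the lowest array for each. Myl1 was highest among controls on control array 1, at 0.63, and Myl4 and Mylpf on control array 3, at 0.32 and 0.64. On the knockdown arrays they stood between 4.03 and 4.91 above those means, with knockdown array 1 the lowest and knockdown array 2 the highest for each. The root mean square distance between these profiles over the 6 arrays was 0.25 for Myl1 and Myl4, 0.30 for Myl4 and Mylpf, and 0.35 for Myl1 and Mylpf. Arrays share their labelling and normalization, so the likeness is a description.

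The 3 genes outside the family with the nearest profiles were the same for each light chain. The distance is set mostly by the size of the change, so it picks genes that rose by nearly as much, and these ranked 2, 4 and 7 by rise. They were Acta1, skeletal alpha-actin, Tnnc2, troponin C of fast fibres, and Tnni2, troponin I of fast fibres. Tnnc2 was nearest to Myl4 and to Mylpf, at 0.22 and 0.26, and Acta1 was nearest to Myl1, at 0.28. Tnnc2 read 813, 1064 and 1037 on the knockdown arrays and 29.4, 6.43 and 38.7 on the control arrays. Tnni2 read 387, 612 and 480 on the knockdown arrays and 11.8, 3.40 and 15.4 on the control arrays. Control array 2 was thus the lowest control for these as well.

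**Figure D3:**
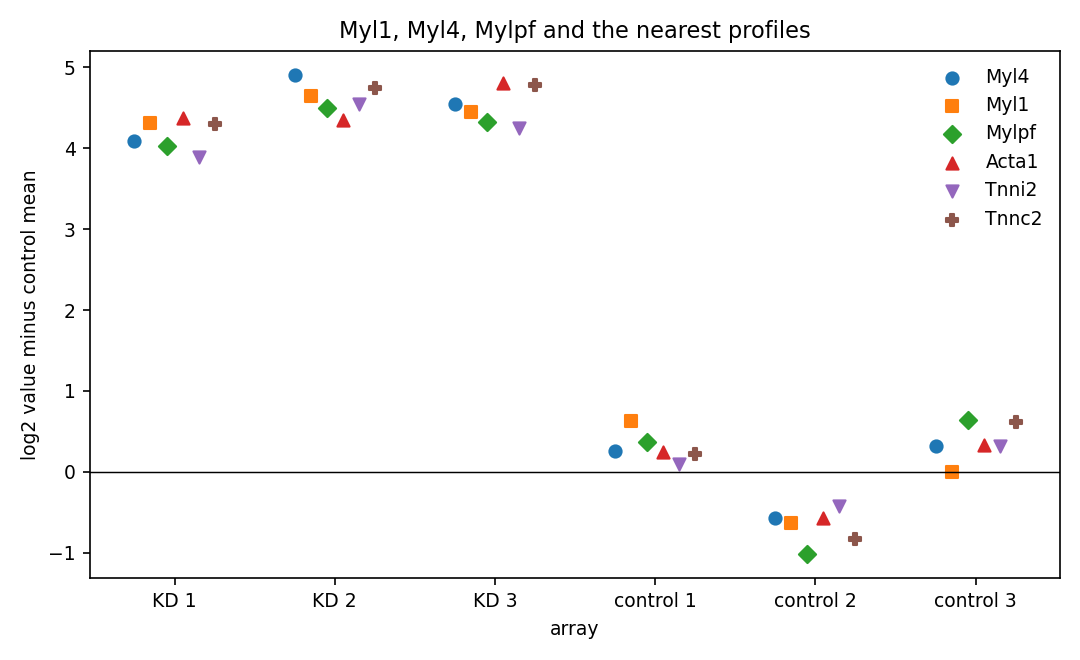
Log2 value minus the control mean on each array for Myl1, Myl4 and Mylpf and for Acta1, Tnni2 and Tnnc2, with arrays along the horizontal axis, knockdown first. Myl1, Myl4 and Mylpf lie between 4.03 and 4.91 on the knockdown arrays, and all 6 genes are at their lowest on control array 2.

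The rises held with and without the doubted arrays in size. In the 4 arrays of higher Dap signal the differences of Myl1, Myl4 and Mylpf were 4.48, 4.66 and 4.59, and between the 2 arrays of low Dap signal, 1 per group, they were 4.45, 4.23 and 3.69. In the fit that leaves out control array 3 they were 4.48, 4.71 and 4.61. Fitted on the 4 higher arrays alone, 0 of the 10 probe sets passed limma's adjusted threshold and 4 had an unadjusted p under 0.05, with adjusted p of 0.0742 for Myl1, 0.0579 for Myl4 and 0.0865 for Mylpf. The part of the control signals in these results was not tested beyond these values.

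The heavy chains that the light chains bind also differed among themselves. Of 8 sarcomeric heavy chain genes measured, 3 rose, 0 fell and 5 did not pass, with a median difference of 0.52, where 2.29% of genes rose and 1.64% fell at their brightest probe set. Myh3, the embryonic heavy chain, read 1031, 1104 and 1311 on the knockdown arrays and 26.1, 12.9 and 26.2 on the control arrays, a difference of 4.92. Myh7, the slow and ventricular heavy chain and the usual partner of Myl2 and Myl3, read 370, 283 and 337 on the knockdown arrays and 7.85, 2.37 and 6.33 on the control arrays, a difference of 3.97 (SE 0.135, limma adjusted p = 0.000335). Myh1, a fast heavy chain, differed by 3.44 and also passed.

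The slow heavy chain thus passed the test while the brightest probe set of either slow light chain did not, and the difference between them was not tested. Myh4 and Myh8, the fast IIb and perinatal heavy chains, read below 16 on all arrays and differed by 0.59 and 0.45 without passing (limma adjusted p = 0.081 and 0.296). Myh4 passed with an offset of 1, at 2.26 (limma adjusted p = 0.0185).

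Nonmuscle and smooth muscle heavy chains gave 0 higher, 1 lower and 3 not passing of 4, with a median difference of 0.01. Over all genes 2.29% rose and 1.64% fell at their brightest probe set. Myh10, nonmuscle myosin IIB, read 192, 158 and 164 on the knockdown arrays and 339, 280 and 231 on the control arrays, and it fell by 0.76 (SE 0.108, limma adjusted p = 0.023). Leaving out control array 1 or 3 gave an adjusted p of 0.0754 or 0.0603, leaving out knockdown array 1, 2 or 3 gave 0.0758, 0.0964 or 0.0999, and omitting the quantile step gave 0.114. Myh11, the smooth muscle heavy chain, and Myh14 read below 16 on every array and differed by 0.16 and 0.06 without passing.

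Of the 5 other regulatory light chain genes measured, 1 rose and 4 did not pass, with a median of 0.07. For this list and the smooth muscle markers below, the share over all genes was 2.29% higher and 1.64% lower. Myl9, the regulatory light chain of smooth muscle and nonmuscle myosin, read 443, 431 and 627 on the knockdown arrays and 107, 65.4 and 50.1 on the control arrays. The groups did not overlap, and the difference was 2.49 (SE 0.243, limma adjusted p = 0.00622). It did not pass with ordinary statistics (adjusted p = 0.101) or in the 4 arrays of higher Dap signal (adjusted p = 0.0855). Myl12b, a nonmuscle regulatory light chain, differed by -0.33 and Myl10 by -0.17, both without passing. Beside the rise of Myl9, 1 of 6 smooth muscle markers rose, Lmod1, and their summed intensity was 2548 to 2878 on the knockdown arrays and 1307 to 2068 on the control arrays. Lmod1 read 29.2, 14.7 and 31.6 on the knockdown arrays and 2.79, 1.82 and 1.00 on the control arrays, and 0 of the 6 markers passed under 11 of 19 alternatives, among them leaving out control array 1 or 3 or knockdown array 1 or 3. Acta2, smooth muscle actin, averaged 2295 in the knockdown and 1118 in the control, and Synpo2 168 in the knockdown and 80.5 in the control, with every knockdown array above every control array. Smtn averaged 242 in the knockdown and 436 in the control, with every knockdown array below. Myh11 and Cnn1 averaged 9.33 and 14.8 in the knockdown and 7.13 and 10.04 in the control, with overlapping groups, and apart from Lmod1 none of the 6 passed. Whether smooth muscle genes have a part in the Myl9 result was not tested.

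Regulatory light chains are switched by kinases and by myosin phosphatase. Of 14 such genes measured, 1 rose, 0 fell and 13 did not pass, with a median of -0.02. Over all genes 2.29% rose and 1.64% fell at their brightest probe set. Mylk4, a member of the myosin light chain kinase family, read 67.5, 56.7 and 71.9 on the knockdown arrays and 0.552, 0.951 and 0.872 on the control arrays, a difference of 2.23 (SE 0.0946, limma adjusted p = 0.000526). The groups stood wide apart, and the offset compresses this difference. Cdc42bpa, a kinase that acts on nonmuscle myosin, differed by -0.61 (limma adjusted p = 0.0687), and Ppp1r12c, a targeting subunit of the phosphatase, by 0.50 (limma adjusted p = 0.392).

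**Figure D4:**
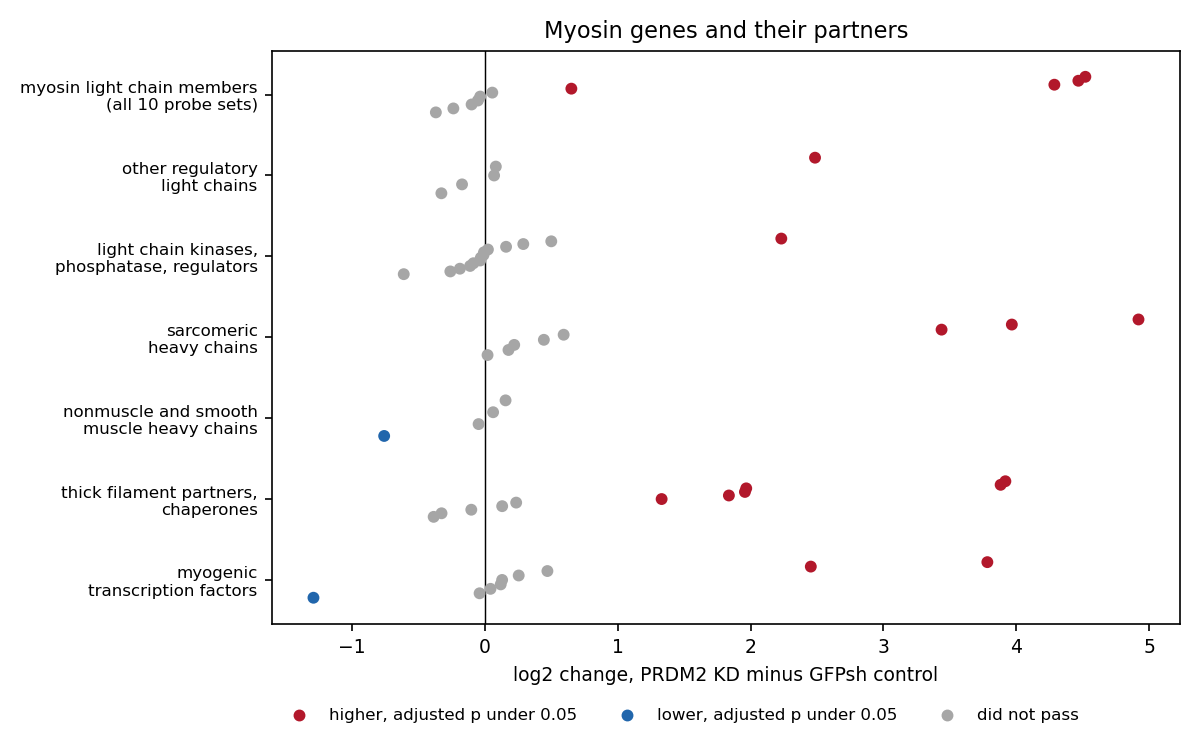
Log2 change, PRDM2 KD minus GFPsh control, of the 10 myosin light chain probe sets and of the brightest probe set of each gene in 6 related lists, with colour for the result of the limma test. In the light chain row Myl1, Mylpf and Myl4 at 1422580_at lie between 4.29 and 4.52, and Myl3 at 1427768_s_at passed at 0.65. In the sarcomeric heavy chain row points past the threshold lie at 3.44 and above, while Myh4 and Myh8 did not pass at 0.59 and 0.45.

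Proteins that build the thick filament around these myosins gave 6 rises, 0 falls and 5 not passing of 11, with a median of 1.33. Mybph, myosin binding protein H, averaged 335 ± 55.8 in the knockdown and 6.52 ± 2.31 in the control, and Myom2, of the M-band, 356 ± 17.3 in the knockdown and 8.60 ± 1.45 in the control (SD, n = 3 each). Their differences were 3.92 and 3.88. Myom1 and Myom3, also M-band proteins, rose by 1.97 and 1.96. Mybpc1, myosin binding protein C of slow fibres, differed by -0.38 and the chaperone Hsp90aa1 by -0.32, both without passing.

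Among transcription factors known to act on muscle genes, 2 of 9 measured rose, 1 fell and 6 did not pass, with a median of 0.13. Of all genes, 2.29% rose and 1.64% fell at their brightest probe set. Myog read 461, 448 and 763 on the knockdown arrays and 44.1, 15.8 and 16.5 on the control arrays, so its lowest control was also control array 2, close to control array 3. Mef2c rose by 2.45. With ordinary statistics the adjusted p was 0.0905 for Myog and 0.0618 for Mef2c, and in the 4 arrays of higher Dap signal 0.0797 and 0.0742. Myod1 and Mef2a differed by 0.47 and 0.26 without passing. Myf5, a factor of undifferentiated myoblasts, fell by 1.29 (SE 0.184, limma adjusted p = 0.0228). Leaving out control array 1 or 3 raised that p to 0.0889 or 0.0698, and leaving out knockdown array 1 or 2 raised it to 0.0923 or 0.0526.

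Since Myl4 and Myl3 are also made in heart, cardiomyocyte markers were read. Of 8 measured, 0 passed limma's adjusted threshold, where 3.92% of all genes passed in either direction at their brightest probe set. The 8 summed to 86.1 to 108 on the knockdown arrays and 96.1 to 117 on the control arrays, and 6 read below 16 on all arrays. The cardiac factors Nkx2-5 and Gata4 were the 2 that did not, averaging 44.9 and 25.9 in the knockdown and 56.8 and 24.3 in the control. Nkx2-5 was lower on every knockdown array than on every control array. Of the others, Nppa, Nppb, Myh6, Tbx5, Ryr2 and Tnni3 averaged 2.24 to 8.05 in the knockdown and 1.10 to 8.58 in the control. Among these, Tnni3 was higher on every knockdown array, averaging 3.23 in the knockdown and 1.10 in the control. Nppb was lower on every knockdown array, averaging 2.53 in the knockdown and 4.56 in the control. The atrial regulatory light chain Myl7 averaged 2.58 ± 0.478 in the knockdown and 1.53 ± 0.849 in the control (SD, n = 3 each). Of markers of other cells, 0 of 5 passed for fibroblasts, 0 of 4 for adipocytes, 0 of 5 for endothelium and 0 of 5 for leukocytes. With 3.92% of all genes passing, lists this short can hold 0 by that share alone, so these counts do not show that such markers were alike. The fibroblast sum was 505 to 675 on the knockdown arrays and 203 to 510 on the control arrays. The adipocyte and endothelial sums also overlapped between the groups. The leukocyte sum was 266 to 338 on the knockdown arrays and 453 to 508 on the control arrays. Cd14 averaged 219 in the knockdown and 342 in the control, with every knockdown array below every control array. Csf1r averaged 61.9 in the knockdown and 113 in the control, and Cd68 was also lower on average, both with overlapping groups. Lyz2 and Ptprc read below 16 on every array with overlapping groups, averaging 7.23 and 1.82 in the knockdown and 6.81 and 1.09 in the control. The part of these markers of other cells in the light chain results was not tested.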

How the data were processed

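RNA from 6 C2C12 cultures was measured on Affymetrix arrays. Per the labels' protocols, total RNA was taken with Trizol and 8 µg of it was made into biotinylated cRNA. Each array's deposited column holds linear intensity values. The submitters' processing notes name GCOS and PLIER, without saying how background and scaling were handled. Its table held 45101 probe sets, of which 64 were controls, and 0 columns of other samples.

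Intensities were quantile normalized as log2(intensity + 16) and tested with limma 3.58.1 in R 4.3.3 (lmFit, eBayes), with Benjamini-Hochberg adjustment over 45037 probe sets and a threshold of 0.05. Intensities quoted are as deposited. Of the probe sets, 34945 had 1 symbol, 932 several and 9160 none in the platform annotation, and the 7 members matched the mouse gene table by identifier. Related genes were read at the probe set with the highest mean. The test was tried on simulated data. The members and lists were chosen with earlier results of these data known. Named genes are all members, up to 4 passing and 2 other genes by size of change in each list, Prdm2, and the 3 nearest profiles. Named markers of other cells, Myl7, Myl12a, Smyd1 and Ptprc were added as markers or relatives after their values were seen. The 19 alternatives covered normalization, offset, filter, variance model, probe set choice, weights, blocks, covariate and leaving out each array.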

Additional observations from a re-analysis of the deposited data

How the results depend on the processing

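The number of arrays and the 5 member probe sets, of 3 genes, below an intensity of 16 on all arrays limit these results. Across 19 alternatives Myl1, Myl4 at 1422580_at and Mylpf kept their direction, with changes of 3.74 to 4.83, 3.37 to 5.35 and 3.72 to 4.61, and each passed under 17. The exceptions were ordinary statistics, where 0 member probe sets passed and 4 had an unadjusted p under 0.05 (161 passed over all probe sets), and the 4 arrays of higher Dap signal, with 0 and 4 (184 over all). Myl3 at 1427768_s_at passed under 9 of 17. Leaving out each array in turn left 3 to 4 members and 385 to 906 probe sets passing. Array weights gave 1981 probe sets.

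The replicate numbers are not said to pair arrays, and same-numbered arrays deviated with correlations of 0.36, 0.10 and 0.01. With the replicate number as a block 592 probe sets passed and 3 members, and the adjusted p of Myl3 at 1427768_s_at was 0.0615.

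Changes near 0 turned sign. Myl4 at 1457126_at was 0.092 with array weights, 0.24 in the higher Dap arrays and 0.044 with the Gapdh ratio as covariate. Leaving out an array gave it -0.20 to 0.078, Myl3 at 1428266_at -0.0047 to 0.12, Myl6b -0.069 to 0.031 and Myh11 -0.036 to 0.27. The causes were not tested.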
